A study of Mus musculus with 4 samples.

Results

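Dermal sheath cells (DSCs), the mesenchymal cells that line the outside of the hair follicle, were compared between passage 9 and passage 3 of culture. The comparison used the 2 DSC libraries of the 4 in the series and asked which groups of genes differed between them. All 51826 gene IDs of the deposited count table were considered, and the 16734 that averaged 10 or more counts across the series entered the comparison. The cells were isolated enzymatically from the sheath of vibrissa (whisker) follicles of 5- to 6-week-old C57BL/6J mice. The study describes these mice as carrying an EGFP transgene, and the labels give their genotype as WT. The cultures were grown in medium with serum. Passage 3 is called low passage and passage 9 high passage, and neither group received a treatment. Dermal papilla cells (DPCs), the mesenchymal cells inside the hair bulb, were sequenced at the same passages and served here only as a second cell type to set beside the DSCs. The study used these libraries to ask how passage relates to the ability of the cells to home to follicles.

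Each group was 1 library, so there was no replicate and no test, and passage cannot be told apart from any other difference between the cultures or between the preparation of their libraries. The DSC libraries held 38780425 counts at passage 3 and 47604059 at passage 9. A count was present for 22343 and 23548 genes, and the 10 most abundant genes took 10.7% and 11% of the counts. Differences below are log2 differences of counts per 1000000 (CPM), passage 9 over passage 3, so that 1 is 2-fold and 2 is 4-fold. A gene is called higher or lower at passage 9 only from 2-fold upward, whatever its interval, and values are given for genes that fell short of it. Values in parentheses after a log2 difference are its 95% interval from counting error alone, taken with 2 counts as 1 fragment because even counts were in excess. Counts are given as passage 3 first and passage 9 second. Where a library had 0 counts, the fold is a lower bound set against 3 fragments (6 counts) in that library.

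The dermal sheath is a contractile layer. It carries smooth muscle proteins such as smooth muscle actin and myosin, rests on a basement membrane of laminin and network collagen, and holds progenitors that can replenish the dermal papilla. Cultured follicle mesenchyme divides in serum, secretes fibrillar collagen, and is known to drift away from its tissue state as passages accumulate. The programs described here are therefore cell identity, positional identity, cell division, matrix, and the signals the cells make and receive.

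At least 2-fold higher at passage 9 were 1430 genes, which is 8.55% of the genes tested, and at least 2-fold lower were 1040, which is 6.21%. Of these the interval excluded 0 for 1190 and 894. At least 4-fold higher were 446 (2.67%), and at least 4-fold lower were 194 (1.16%). The median over all tested genes was 0.00, with quartiles of -0.33 and 0.37. The shares of each gene list below are to be read against these percentages and this median. A gene with few counts can enter through the library where it is high, so the tallies of the sparsely detected Hox, Schwann, endothelial, neuropeptide, potassium channel and chemokine receptor lists account for their members and measure nothing about the lists. The 4-fold boundary cut through a continuous range, with 165 genes within 0.5 above it and 321 within 0.5 below it on the higher side. Esrrb lay just under it and D330050G23Rik just over it, both equal to 4-fold at 2 decimals. On the lower side Pik3r5 lay just past it and Itih5 just short of it, again equal to it at 2 decimals, with 96 genes within 0.5 beyond and 246 within 0.5 short of it.

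**Figure D1:**
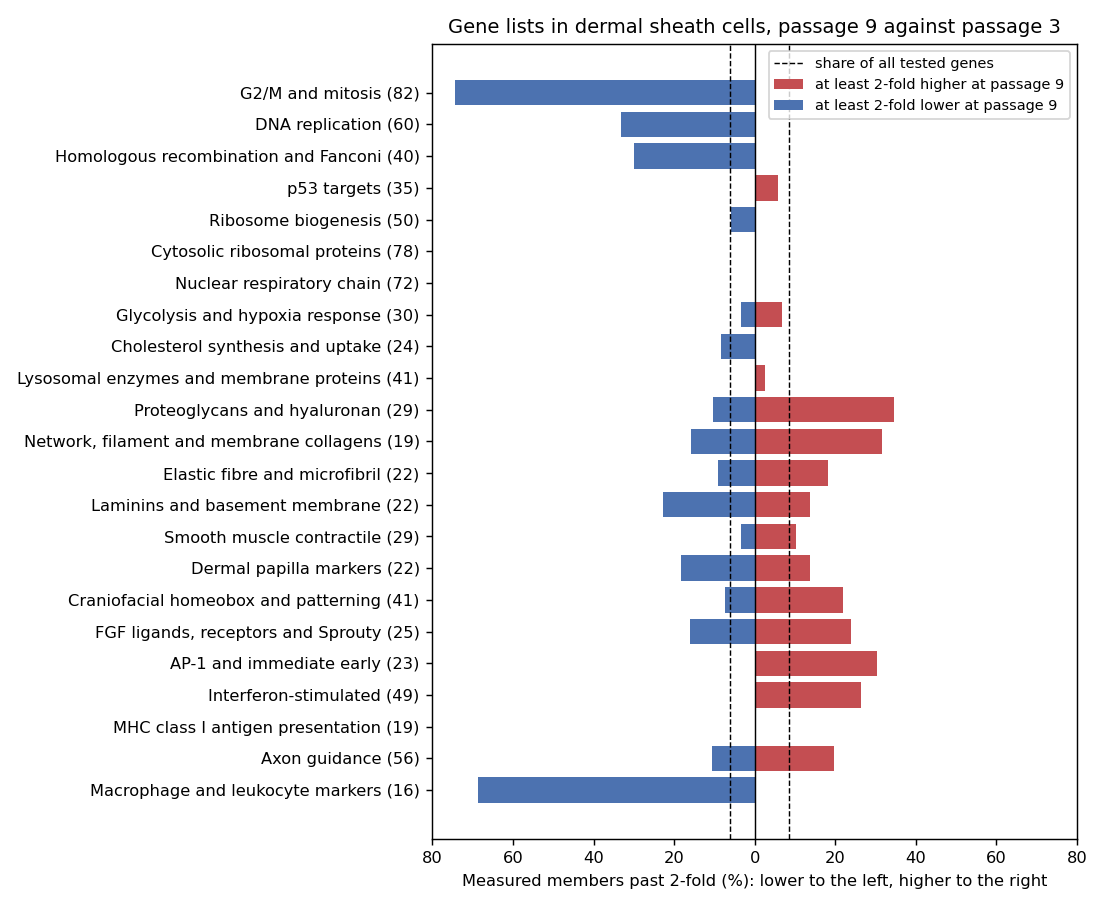
Share of the measured members of each gene list that were at least 2-fold higher (right) or lower (left) in high-passage than in low-passage DSCs, in percent, with the number of measured members in parentheses. Dashed lines mark the shares over all 16734 tested genes, 8.55% higher and 6.21% lower, and the G2/M list reaches furthest to the left with 61 of 82 members lower.

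The contractile genes by which the sheath is known were well detected in both libraries, and as a list they differed little. Acta2 (smooth muscle actin) was at 217199 and 197315 counts, a log2 difference of -0.40 (-0.42 to -0.39). Tagln (transgelin) was at 60254 and 65077 counts, or -0.15 (-0.18 to -0.13). Over the smooth muscle contractile list, 3 of 29 measured members were higher and 1 was lower, with a median of 0.06, close to that of all genes. The members that were higher were Itga8, Myh11 and Ldb3. Myh11, the smooth muscle myosin heavy chain, went from 1063 to 3160 counts, or 1.31 (1.17 to 1.45), and Ldb3, a Z-line protein, from 85 to 239, or 1.21 (0.72 to 1.78). Cnn1 (calponin) stood at 0.99 (0.91 to 1.07), just under 2-fold, and Mylk (myosin light chain kinase) at 0.80 (0.75 to 0.85). The largest difference of the list was in Itga8 (ENSMUSG00000026768, chromosome 2, 12106632 to 12301922 on GRCm38), the alpha 8 integrin subunit that binds nephronectin. It had 1674 and 23287 counts, a log2 difference of 3.53 (3.43 to 3.64). Pdlim3 was the member that was lower, at 20 and 8 counts, with the wide interval -3.71 to 0.21. In DPCs the same list had a median of -0.80, with 12 members at least 2-fold lower, and Myh11 there was at 2882 and 168 counts. Whether the cell types differed was not tested, here or in the values of DPCs given below.

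Of 13 measured dermal sheath markers, which include Myh11 and Itga8, 3 were higher and 2 lower. The other one that was higher, the pericyte gene Rgs5, had 4 and 18 counts with the interval -0.37 to 5.15. Cspg4 (the NG2 proteoglycan, 13959 and 5393 counts) was lower, at -1.64 (-1.70 to -1.57). Sox2, a progenitor factor of follicle mesenchyme, was at 269 and 178 counts, or -0.85 (-1.26 to -0.46), and Ednra, the endothelin A receptor, was lower at 103 and 60, or -1.02 (-1.73 to -0.35). Col11a1 and Ncam1 barely differed, at -0.09 and 0.14. Of the general fibroblast genes, Col1a1 and Col1a2 stood at -0.37 and -0.26, Vim (vimentin) at -0.43 and Pdgfrb at -0.49. Pdgfra, the receptor that marks dermal fibroblasts, was higher at 4594 and 12132 counts, or 1.14 (1.07 to 1.21). Of 17 measured mesenchymal surface markers, 4 were higher and 2 lower. Besides Pdgfra, those higher were Cd34 at 1.60 (1.46 to 1.75), Nt5e (CD73) at 1.38 (1.23 to 1.54) and Cd24a at 2.08 (1.23 to 3.47), and those lower were Cspg4 and Ngfr, which is described below.

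Markers of the dermal papilla did not move as one. Of 22 measured, 3 were higher and 4 lower, with a median of 0.11. Crabp1, a retinoic acid binding protein, went from 1518 to 20405 counts, or 3.48 (3.38 to 3.59). Fgf10, a mesenchymal growth factor that acts on epithelium, went from 1078 to 6546, or 2.34 (2.21 to 2.47), and Rspo2, which amplifies Wnt signals, from 1671 to 4813, or 1.26 (1.15 to 1.38). Against these, Vcan (versican), Lef1 and Alpl (alkaline phosphatase) were lower. Vcan was at 5272 and 2913 counts, or -1.12 (-1.21 to -1.03). Lef1, the Wnt transcription factor of the papilla, had 101 and 55, or -1.11 (-1.89 to -0.45), and Alpl had 23 and 6, or -1.85 (-4.62 to -0.22).

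Hox cluster genes, the transcription factors that give trunk and limb cells their position along the body, were detected in larger number at passage 9. Cells of the face are known to express few of them. Of the 39 Hox genes listed, 15 had a count at passage 3 and 21 at passage 9, and 16 were at 0 in both DSC libraries. Summed over the list, the DSC libraries held 360 and 2441 counts. Most of the added counts lay in 2 of the 4 clusters. The 10 listed HoxB genes went from 26 to 1234 counts and the 9 HoxC genes from 177 to 940. The 11 HoxA genes held 50 and 88 counts and the 9 HoxD genes 107 and 179. In DPCs the HoxB genes summed to 0 and 21 counts and the HoxC genes to 6 and 89, whereas the HoxD genes held 1084 and 1348.

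A run of neighbouring HoxB genes had counts only at passage 9. Hoxb3 (ENSMUSG00000048763, chromosome 11, 96323326 to 96347930) had 0 and 202 counts, at least 28-fold higher at passage 9. Hoxb4 had 0 and 81 (at least 11.2-fold), Hoxb5 0 and 52 (at least 7.21-fold), Hoxb6 0 and 169 (at least 23.4-fold) and Hoxb7 0 and 133 (at least 18.4-fold). The next genes of the cluster had counts at both passages. Hoxb8 had 4 and 196 counts, a ratio with the interval 3.46 to 8.42, and Hoxb9 had 21 and 372, or 3.76 (3.04 to 5.04). In HoxC, Hoxc9 had 0 and 143 counts (at least 19.8-fold) and Hoxc10 0 and 125 (at least 17.3-fold). Hoxc8 had 3 and 183 with the interval 3.73 to 11.56, while Hoxc4, Hoxc5 and Hoxc6 were detected at passage 3 and stood at 1.53 (0.80 to 2.51), 1.17 (0.12 to 2.68) and 1.17 (0.70 to 1.72). Of the 39, 19 had enough counts in any library to enter the comparison, and most of these did so through the passage 9 library. These counts are small beside the library totals, and passage cannot be told apart from a different mix of cells in the cultures.

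**Figure D2:**
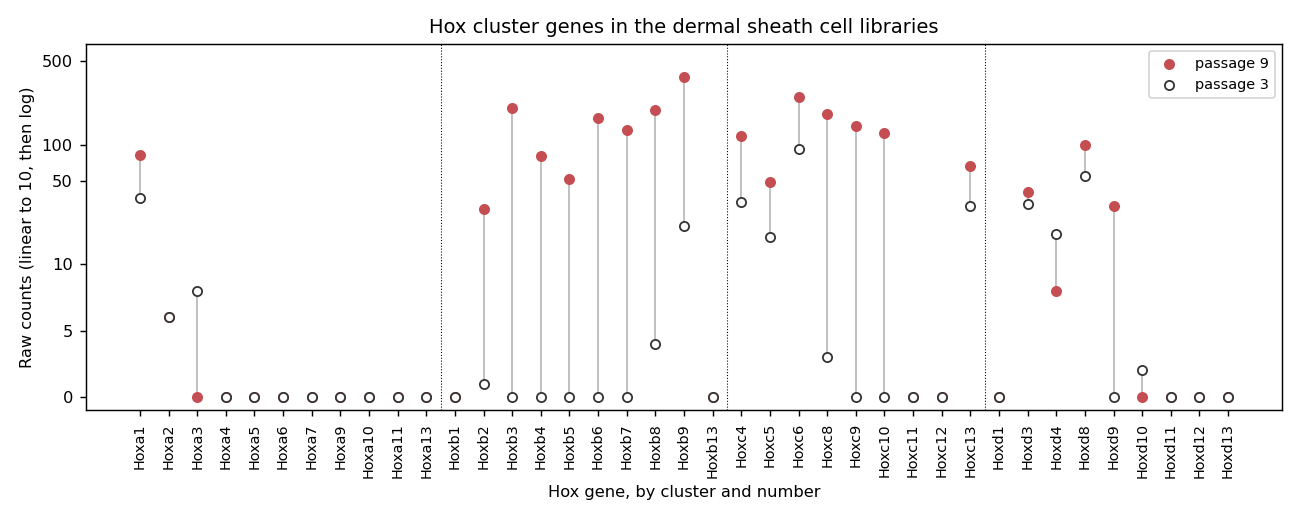
Raw counts of the 39 listed Hox genes in the DSC libraries at passage 3 (open circles) and passage 9 (filled circles), ordered by cluster and number, on an axis that is linear below 10 and logarithmic above. Filled circles of Hoxb3 to Hoxb8 and Hoxc8 to Hoxc10 stand above open circles at or near 0, while Hoxc4, Hoxc5 and Hoxc6 had counts at both passages. Hoxb9 is highest at 372, and HoxA holds 8 genes at 0 in both libraries. A lone open circle covers a filled one of the same count.

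Other positional and homeobox genes also differed. Of 41 measured craniofacial and patterning genes, 9 were higher and 3 lower, with a median of 0.32. Lhx8, a LIM homeobox factor of jaw and palate mesenchyme, had 0 and 260 counts, at least 36.1-fold higher at passage 9. Tfap2c had 0 and 47 (at least 6.52-fold). Dlx5, a factor of jaw patterning and bone, had 13 and 182, or 3.36 (2.48 to 5.14), and Dach1, one of the genes the study examined, 11 and 163, or 3.41 (2.47 to 5.41). Lower were the homeobox factors Irx3, with 761 and 276 counts, or -1.72 (-2.02 to -1.44), and Meox2, with 2437 and 899, or -1.70 (-1.86 to -1.55). The mesenchymal factors Prrx1 and Tbx15 stood at 0.88 and -0.45.

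Several markers of glia and vessels, and most leukocyte markers, were lower at passage 9. Ngfr (ENSMUSG00000000120, chromosome 11, 95568818 to 95587735), the p75 neurotrophin receptor, had 544 and 0 counts and was at least 109-fold lower. Sox10, the defining factor of Schwann cells and melanocytes, had 116 and 0 (at least 23.2-fold lower), Cdh19 had 95 and 0 (at least 19-fold) and Foxd3 32 and 0 (at least 6.41-fold). Of the 14 Schwann and glial markers, 10 were measured, 6 of these were lower and 1 (Egr2, also an immediate early gene) was higher. S100b had 216 and 144 counts, so this glial transcript was still present, and Mbp and Pmp22 stood at -0.03 and -0.25. Their summed level was 222 CPM at passage 3 and 195 at passage 9. In bulk RNA, fewer cells of a type and less RNA per cell cannot be told apart.

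Most leukocyte markers were lower too. Of 18 macrophage and leukocyte markers, 16 were measured, 11 were lower and none higher, with a median of -1.28. Ptprc (CD45, carried by all leukocytes) had 116 and 18 counts, or -2.80 (-4.15 to -1.93), and the complement component C1qa of tissue macrophages had 384 and 144, or -1.66 (-2.09 to -1.28). Lyz2 (lysozyme) had 4971 and 3567, or -0.74 (-0.83 to -0.66). Their summed level was 236 CPM at passage 3 and 129 at passage 9, and in DPCs 14 members were at least 2-fold lower. Endothelial RNA was scarce, with a summed level of 10.4 and 3.64 CPM over 11 markers, and 6 were measured. Cdh5 (VE-cadherin) had 45 and 0 counts (at least 9.01-fold lower), Vwf 91 and 10, or -3.18 (-5.13 to -2.11), and Tek 114 and 31, or -2.06 (-3.12 to -1.35). Keratinocyte RNA was near the floor, with Krt5, Krt14, Cdh1 and Epcam at 0 in both DSC libraries and a summed level of 12.5 and 13.5 CPM over the list. Tyr, Tyrp1, Dct and Mlana of melanocytes were also at 0 in both, as were Myod1, Myf5 and Pax7 of skeletal muscle. Other members of these lists had counts. The summed level was 15.5 and 13.0 CPM over the 10 melanocyte markers, and 50.9 and 27.5 CPM over the 15 skeletal muscle markers.

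Genes of cell division were lower together. In the G2/M and mitosis list, 61 of 82 members were at least 2-fold lower at passage 9 and none was higher. The median was -1.19, and the quartiles were -1.42 and -0.97. Cdc20 (ENSMUSG00000006398, chromosome 4, 118432901 to 118437352), the activator of the anaphase-promoting complex, had 1597 and 392 counts, or -2.28 (-2.52 to -2.06). The cyclins Ccna2 and Ccnb1 stood at -1.93 (-2.09 to -1.79) and -1.75 (-1.95 to -1.56). Spc24 of the kinetochore and Cdca8 (borealin, of the chromosomal passenger complex) stood at -1.96 (-2.54 to -1.50) and -1.92 (-2.22 to -1.66). Among the members with most counts, Mki67 (Ki-67) had 6743 and 3333 counts, or -1.28 (-1.37 to -1.20), Top2a 5432 and 2681, or -1.28 (-1.38 to -1.19), and Anln (anillin, needed for cytokinesis) 5112 and 3453, or -0.83 (-0.92 to -0.74). Only Psrc1, which the p53 pathway also induces, was above 0, at 0.32 (0.20 to 0.44). Division genes remained well detected at passage 9, with a summed level of 3047 CPM before and 1448 CPM after. In DPCs the list had a median of -2.26.

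Many promoters of this list carry a pair of short elements that are known to bring in the cell cycle repressor and activator complexes, the CCAAT box and the CHR element TTTGAA. The promoters of 3 members are shown because they hold both and belong to the members that differed most. They are RefSeq promoter sequences on GRCm38.p6, 5′ to 3′ along the gene's strand, from 250 bases before to 50 bases after the start. Capitals mark CCAAT (or ATTGG, its reverse) and TTTGAA.
Cdc20, chr4:118437294-118437593, minus strand: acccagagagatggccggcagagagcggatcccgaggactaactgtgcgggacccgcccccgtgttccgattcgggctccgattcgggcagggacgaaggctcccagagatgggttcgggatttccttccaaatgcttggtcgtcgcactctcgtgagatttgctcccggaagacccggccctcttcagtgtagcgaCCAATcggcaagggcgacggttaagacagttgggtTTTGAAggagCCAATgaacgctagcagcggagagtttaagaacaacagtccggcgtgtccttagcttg
Cdca8, chr4:124936868-124937167, minus strand: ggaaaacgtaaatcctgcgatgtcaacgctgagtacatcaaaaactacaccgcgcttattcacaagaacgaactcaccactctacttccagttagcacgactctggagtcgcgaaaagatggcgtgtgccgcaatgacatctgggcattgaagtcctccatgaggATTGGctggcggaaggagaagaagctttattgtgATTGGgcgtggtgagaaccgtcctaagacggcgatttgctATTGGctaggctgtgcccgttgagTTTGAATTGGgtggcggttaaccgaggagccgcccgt
Plk1, chr7:122159185-122159484, plus strand: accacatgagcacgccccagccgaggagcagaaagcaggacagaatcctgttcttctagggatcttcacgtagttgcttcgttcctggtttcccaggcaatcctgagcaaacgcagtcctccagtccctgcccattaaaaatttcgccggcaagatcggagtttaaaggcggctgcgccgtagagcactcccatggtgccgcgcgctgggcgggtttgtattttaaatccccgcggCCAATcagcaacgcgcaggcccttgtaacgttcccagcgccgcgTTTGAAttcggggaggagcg

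The Cdc20 window holds 2 CCAAT boxes, 1 on either side of its CHR element, and in the Cdca8 window the CHR element overlaps the last of 4 ATTGG motifs by 1 letter. Plk1, a mitotic kinase, had 1650 and 603 counts, or -1.71 (-1.92 to -1.53). Of the 82 measured genes of the list, 64 had a promoter in the table, 70 promoters in all. CCAAT on either strand was in 77.1% of these against 37.4% of all 32851 promoters, and TTTGAA in 68.6% against 17.9%. Both were in 41 of the 70, or 58.6%, against 6.95% of all. The letters did not sort the members by size, since the median log2 difference was -1.26 for the 45 genes with TTTGAA and -1.18 for the 19 without. A match of letters is a description and not a binding site.

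Of 60 DNA replication genes, 20 were at least 2-fold lower and none was higher, with a median of -0.83. Clspn (claspin, of the replication checkpoint) had 852 and 295 counts, or -1.79 (-2.08 to -1.53). The origin licensing genes Orc1 and Cdc6 stood at -1.61 (-2.16 to -1.16) and -1.47 (-1.86 to -1.12), and Chaf1b, a histone chaperone subunit, at -1.62 (-1.95 to -1.32). Orc4, whose product belongs to the same complex as that of Orc1, stood at 0.11 (-0.04 to 0.25). Rrm1, of ribonucleotide reductase, had 6673 and 4135 counts, or -0.96 (-1.04 to -0.88). Homologous recombination and Fanconi genes had a median of -0.64 and 12 of 40 members lower. Polq, the polymerase of end joining by microhomology, had 480 and 116, or -2.29 (-2.75 to -1.89), and Rad54b, Eme1 and Bard1 stood at -2.01, -1.85 and -1.63. The kinase Atm and its partner Rad50 were near 0, at -0.19 (-0.32 to -0.07) and 0.02 (-0.11 to 0.15).

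Of 22 measured G1 cyclins, CDKs and E2F factors, 2 were higher and 4 lower. E2f2, E2f8 and E2f7 were lower, at -1.87 (-2.64 to -1.23), -1.46 (-1.77 to -1.18) and -1.06 (-1.30 to -0.83), as was the S phase cyclin Ccne2 at -1.05 (-1.34 to -0.76). Higher were Tfdp2, a partner of E2F factors, with 684 and 2652 counts, or 1.69 (1.52 to 1.87), and Mycn, with 18 and 56, or 1.28 (0.25 to 2.64). The D cyclins that respond to growth factors were near 0, with Ccnd1 at 24377 and 29642 counts, or 0.02 (-0.02 to 0.05), and Ccnd2 at -0.03 (-0.06 to 0.00). Of the cyclin-dependent kinase inhibitors, Cdkn2a (which encodes p16 and p19) had 942 and 3211 counts, or 1.50 (1.35 to 1.65), and Cdkn1c (p57) 9 and 84, or 2.71 (1.66 to 5.07). Cdkn1a (p21) had 14088 and 18004, or 0.09 (0.04 to 0.13). The p53 target list had a median of 0.28, with 2 of 35 members higher and none lower. Those were Btg2, also an immediate early gene, at 1.47 (1.37 to 1.58), and Dcxr at 1.07 (0.85 to 1.30). Mdm2, the ubiquitin ligase of p53, stood at 0.66 (0.58 to 0.73), and Trp53 itself at -0.40 (-0.49 to -0.32).

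**Figure D3:**
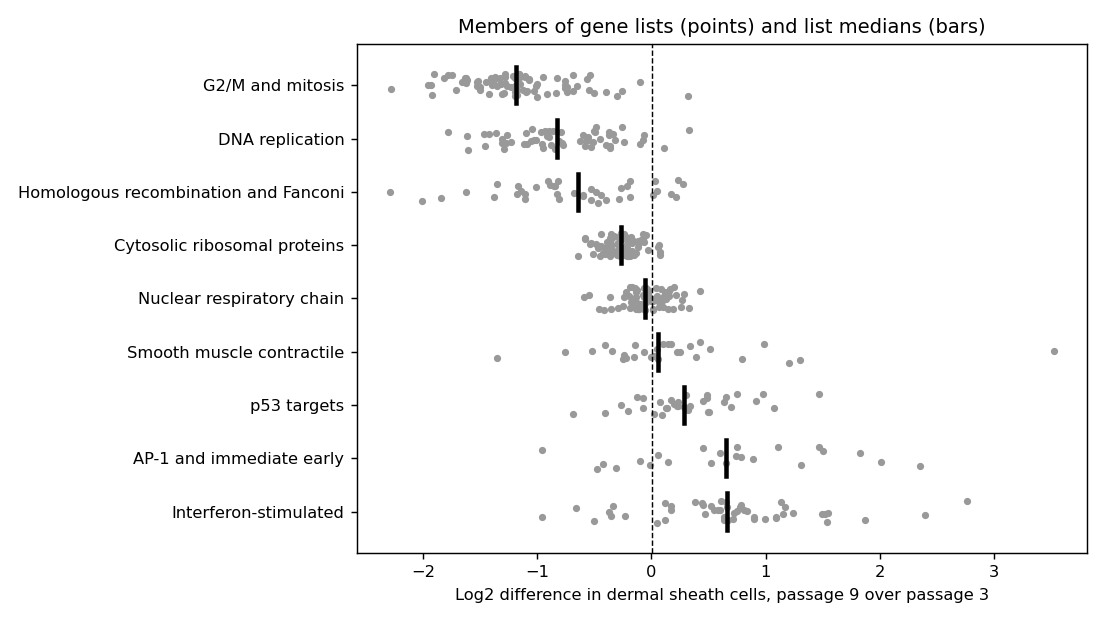
Log2 difference, high over low passage in DSCs, of each measured member of 9 gene lists (grey points, 1 gene each), with the list median as a black bar and the median of all tested genes as a dashed line. G2/M and DNA replication genes lie to the left, with medians of -1.19 and -0.83, and interferon-stimulated genes to the right, with a median of 0.66.

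Genes of protein synthesis had medians slightly below that of all genes, and hardly any reached 2-fold. Cytosolic ribosomal protein genes had a median of -0.27, from -0.64 (Rps2) to 0.08 (Rps15), and none of the 78 reached 2-fold. The same list stood at -1.16 in DPCs. Ribosome biogenesis genes had a median of -0.39 and 3 of 50 members lower, among them Rrp1b at -1.33 (-1.63 to -1.04) and Grwd1 at -1.09 (-1.35 to -0.84). Myc, a known activator of these genes, had 1940 and 1195 counts, or -0.96 (-1.11 to -0.82). The nucleolar genes Ncl (nucleolin) and Npm1 (nucleophosmin) stood at -0.58 (-0.62 to -0.54) and -0.66 (-0.70 to -0.62). Translation factors had a median of -0.25 with none past 2-fold in either direction. Nuclear genes of the respiratory chain had a median of -0.06. Of the mitochondrial transcripts, mt-Atp6 stood at 2.23 while mt-Nd4 and mt-Nd1 stood at 0.33 and 0.22. The exon of mt-Atp6 overlaps that of another gene on its strand, so its value is uncertain.

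Metabolic and stress genes held few differences of 2-fold. In the glycolysis and hypoxia list, Bnip3 and Adm (adrenomedullin) were higher, at 1.17 (1.06 to 1.28) and 1.18 (1.10 to 1.27), and Ndrg1 was lower at -1.49 (-1.64 to -1.35), with a median of 0.25 over 30 members. Cholesterol genes had a median of -0.31, with 2 of 24 lower. Hmgcs1, of the first steps of synthesis, stood at -0.21 (-0.28 to -0.14). Of the 30 unfolded protein and ATF4 genes, the ATF4 targets Trib3, Chac1 and Phgdh were lower, at -1.59 (-1.73 to -1.46), -1.36 (-1.54 to -1.19) and -1.22 (-1.30 to -1.15). Ern1, the sensor of unfolded protein, was higher at 1.08 (0.97 to 1.20), and the chaperone gene Calr stood at 0.01. Of 26 antioxidant genes, 2 were higher and 3 lower. Slc7a11 (the cystine transporter), Gpx3 (an extracellular peroxidase) and Txn1 (thioredoxin) were lower at -1.62 (-1.92 to -1.34), -1.36 (-1.41 to -1.32) and -1.01 (-1.10 to -0.92). Gsta4, a glutathione transferase, was higher at 2.14 (1.69 to 2.72), and Sod3 (extracellular superoxide dismutase) was higher with 8686 and 25397, or 1.28 (1.23 to 1.33). Of 41 lysosomal genes, the cathepsin gene Ctsh was higher at 1.27 (1.10 to 1.44), and the list had a median of 0.20. None of the 31 proteasome genes reached 2-fold.

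Several small leucine-rich proteoglycans of the matrix were at least 4-fold higher, while the main fibrillar collagen genes, as given above, were within 2-fold. The proteoglycan list held 10 higher and 3 lower members of 29 measured, 7 of them at least 4-fold higher, with a median of 0.52. Dcn (ENSMUSG00000019929, chromosome 10, 97479609 to 97518143), the collagen-binding proteoglycan decorin, went from 3292 to 89544 counts, or 4.50 (4.43 to 4.57). In DPCs Dcn stood at 0.39, with 4285 and 5494 counts. Lum (lumican) had 0 and 109 counts in DSCs, at least 15.1-fold higher, and Omd (osteomodulin) 143 and 1182, or 2.77 (2.44 to 3.17). Further members of this family of leucine-rich proteoglycans were Ogn at 2.48 (2.41 to 2.55) and Aspn at 2.26 (2.21 to 2.32). Bgn (biglycan), with many counts at both passages, had 255035 and 391019, or 0.35 (0.34 to 0.36), whereas Fmod (fibromodulin) was lower with 69521 and 35316, or -1.24 (-1.27 to -1.22). Gpc3, a glypican, had 70 and 678, or 2.98 (2.51 to 3.56), and Hapln1, which links hyaluronan to aggregating proteoglycans, stood at 2.55 (2.11 to 3.13). Its large partner Acan (aggrecan) had 1300 and 79, or -4.27 (-4.83 to -3.86).

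The cartilage gene Col2a1 was lower like Acan. Col2a1, the collagen of cartilage, had 203 and 2 counts with the interval -12.24 to -4.41, and the chondrogenic factor Sox6 had 50 and 14, or -1.93 (-3.55 to -0.85). Sp7, a factor of bone formation, had 38 and 9, or -2.08 (-4.53 to -0.92). In the osteogenic and chondrogenic list, Spp1 (osteopontin) had 71137 and 404313 counts, or 2.24 (2.23 to 2.26). Bmp2 had 24 and 140, or 2.19 (1.38 to 3.30). That list held 4 higher and 5 lower members of 20 measured, with Dlx5 and Omd among the higher and Alpl among the lower. Col10a1, which was listed with the network collagens and is the collagen of hypertrophic cartilage, had 1526 and 10483, or 2.51 (2.41 to 2.63), and stood at -3.33 in DPCs.

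Among the other collagens, Col12a1, which sits on the surface of fibrils, had 269448 and 609615 counts, or 0.91 (0.90 to 0.92), and Col14a1, a relative, had 227 and 53, or -2.31 (-3.06 to -1.76). Col15a1 of basement membrane zones had 101 and 0 (at least 20.2-fold lower). The main basement membrane chains Col4a1 and Col4a2 stood at 0.08 and 0.28, while the minor chains Col4a3, Col4a4 and Col4a6 were higher, at 2.14 (1.52 to 2.91), 2.68 (1.96 to 3.82) and 2.02 (0.71 to 4.25). Laminin chains differed in both directions. Lamc3 and Lamb1 were at 2.70 (2.21 to 3.31) and 1.21 (1.14 to 1.28), and Lamb3, a chain of epithelial laminin, at -2.35 (-3.34 to -1.60). Egflam (pikachurin), a matrix ligand of dystroglycan, had 50 and 692 counts, or 3.48 (2.94 to 4.17). In elastic fibres, Fbn2 (fibrillin 2) had 1031 and 51, or -4.54 (-5.27 to -4.05), and Eln (elastin) 466 and 240, or -1.21 (-1.55 to -0.90). Fbn1 (fibrillin 1), with many more counts, stood at -0.75 (-0.76 to -0.73). The latent TGF-beta binding proteins Ltbp4, Ltbp1 and Ltbp3 were higher, at 1.71, 1.14 and 1.09, and Emilin1 at 1.07.

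Of 18 measured matrix metalloproteinases and inhibitors, 3 were higher and 1 lower. Mmp3 (stromelysin 1), one of the genes the study examined, had 63 and 1793 counts, or 4.52 (4.07 to 5.15), whereas Mmp2 and Mmp14 stood at -0.30 and -0.61. Of 17 measured ADAMTS family genes, 4 were lower and 1 higher, with Adamtsl3 at 4665 and 1011 counts, or -2.47 (-2.61 to -2.33), and Adamts12 at 8175 and 2982, or -1.72 (-1.81 to -1.63). Of the integrins, Itga4, which binds fibronectin and VCAM1, had 796 and 7052, or 2.88 (2.73 to 3.04), and the laminin receptor Itga7 had 845 and 3189, or 1.65 (1.50 to 1.81). Itga6, another laminin receptor subunit, was lower at 551 and 203, or -1.69 (-2.05 to -1.38). The common partner Itgb1 had 66699 and 109592, or 0.45 (0.43 to 0.47).

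**Figure D4:**
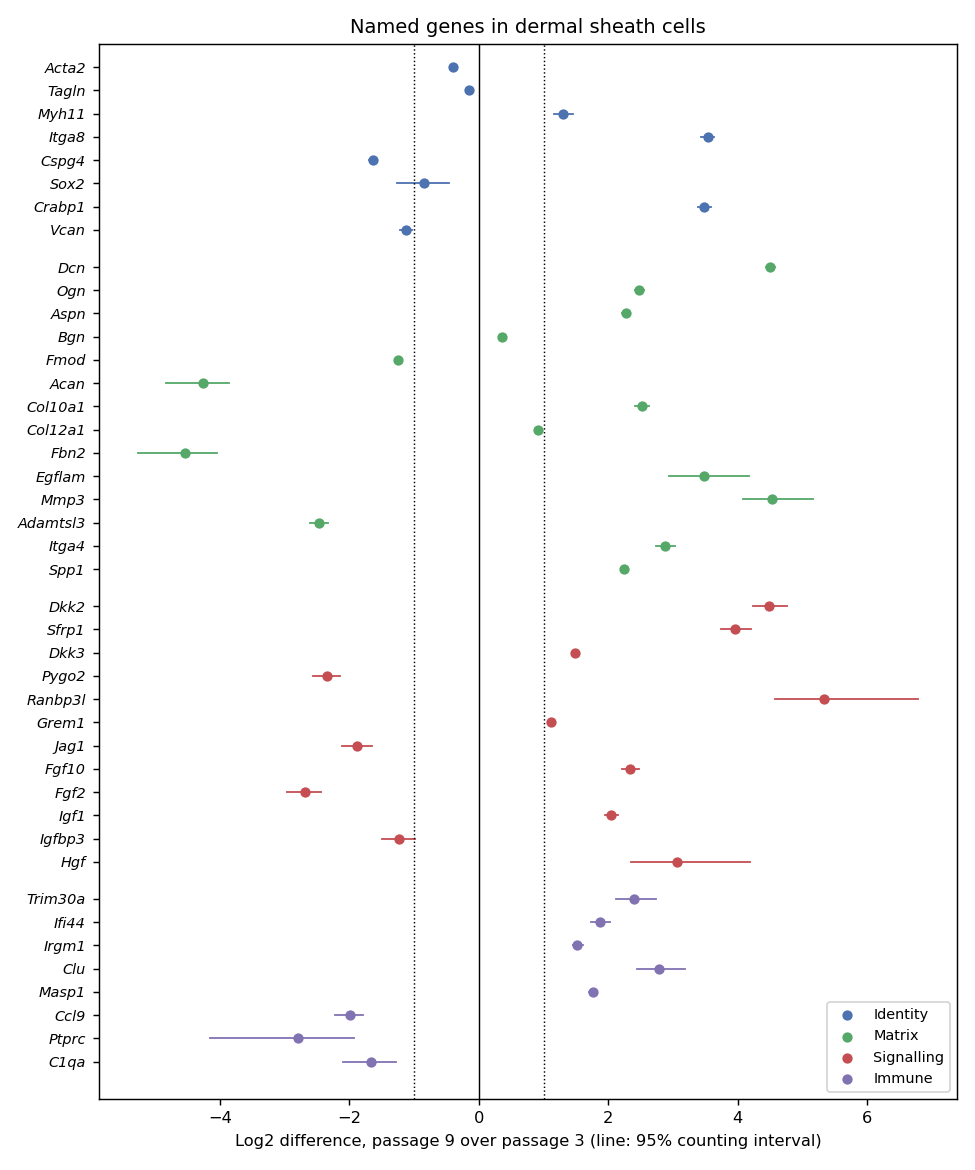
Log2 difference, high over low passage in DSCs, of named genes of identity, matrix, signalling and immunity (points), with the 95% counting interval as a line where both libraries had counts. Dotted lines mark 2-fold in each direction, Dcn, Mmp3, Dkk2 and Ranbp3l lie beyond 4 on the right, and Acan and Fbn2 beyond -4 on the left.

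In Wnt signalling the secreted inhibitors differed most. Wnt ligands bind Frizzled and LRP receptors at the cell surface, and several secreted proteins block that step. Of 9 measured inhibitors, 5 were higher and none was lower. The summed level of the list was 431 and 1442 CPM, most of it from Dkk3 at both passages. Dkk2 (ENSMUSG00000028031, chromosome 3, 132085292 to 132180304), which blocks the LRP coreceptors, had 248 and 6695 counts, or 4.48 (4.23 to 4.76). The same gene stood at -0.80 (-1.36 to -0.31) in DPCs. Sfrp1, which binds Wnt ligands and which the study examined, had 339 and 6342, or 3.95 (3.74 to 4.20). Dkk3, a divergent member of the family, had 15438 and 51948, or 1.49 (1.45 to 1.52). Sfrp4 and Apcdd1 stood at 1.19 (0.30 to 2.45) and 1.02 (0.72 to 1.34), Frzb at 0.27 (-0.54 to 1.21), and Sfrp2 had 11 and 6 counts. Notum was at 0 in both DSC libraries and Sostdc1 at 0 and 2 counts.

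Of 14 measured Wnt ligands and R-spondins, 4 were higher and 1 lower, and of 18 receptors 3 were higher and 1 lower. Wnt5a, the ligand with most counts, stood at 0.48 (0.40 to 0.56), Wnt4 at -1.18 (-1.72 to -0.68) and Wnt2b at 1.27 (0.39 to 2.53). Wnt7b had 0 and 47 counts (at least 6.52-fold higher). Lgr5, an R-spondin receptor and progenitor marker, had 14 and 124, or 2.72 (1.75 to 4.25), and the coreceptors Lrp6 and Lrp5 stood at 0.48 and 0.23. Inside the cell, Ctnnb1 (beta-catenin) stood at 0.29, while Pygo2, a nuclear partner of beta-catenin, had 1956 and 460 counts, or -2.35 (-2.57 to -2.14). Apc, of the destruction complex, had 5855 and 3279, or -1.10 (-1.19 to -1.01). Of the feedback genes, Nkd1 stood at -1.77 (-2.51 to -1.20) and Axin2, which the study examined, at 34 and 74 counts, or 0.82 (-0.01 to 1.78). The value of Axin2 depended on the unit, since its deposited FPKM (counts scaled for gene length and library size) was 0.182 and 0.826, past 2-fold.

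Of 22 measured BMP ligands, receptors and antagonists, the ligands Bmp7 and Bmp2 and the antagonist Grem1 were higher and none was lower. Bmp7 had 0 and 51 counts (at least 7.07-fold higher). Bmp4, the main ligand of follicle mesenchyme, stood at -0.32 (-0.39 to -0.24), and Grem1, a secreted BMP antagonist, had 40481 and 104978, or 1.11 (1.09 to 1.13). The response genes Id1 and Msx2 were higher at 1.47 (1.20 to 1.75) and 1.43 (1.15 to 1.72), with Smad6 and Smad1 at -0.28 and 0.25. Ranbp3l, which exports SMADs from the nucleus and which the study examined, had 17 and 913, or 5.33 (4.58 to 6.79). Of the TGF-beta and activin genes, Inhbb had 315 and 1242, or 1.71 (1.46 to 1.98).

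Notch genes differed in both directions. Jag1, a ligand that the study examined, had 1243 and 404 counts, or -1.88 (-2.12 to -1.65), and its receptor Notch1 had 474 and 203, or -1.48 (-1.85 to -1.15). Of the targets, Heyl had 30 and 0 (at least 6.01-fold lower) and Hey1 72 and 44, or -0.94 (-1.81 to -0.17). Notch2, with more counts, stood at 0.44 (0.38 to 0.51), and the ligand Dll1 had 6 and 44 with the interval 0.87 to 4.99. Over the list, 3 of 13 measured members were lower and 2 higher.

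Growth factors made by the cells changed in both directions. In the FGF list, 6 of 25 measured members were higher and 4 lower. Besides Fgf10, Fgf9 had 8 and 139 counts, or 3.56 (2.42 to 5.76), and Fgf18 14 and 105, or 2.49 (1.48 to 4.01). Fgf7 (keratinocyte growth factor), the ligand with most counts, had 6853 and 16216, or 0.98 (0.92 to 1.04). Lower were Fgf2, with 1590 and 295, or -2.69 (-2.96 to -2.44), and Fgf13, with 390 and 111, or -2.06 (-2.55 to -1.65). The receptor Fgfr1 stood at 0.49 (0.44 to 0.55). Igf1 had 2026 and 10055, or 2.05 (1.95 to 2.14), and stood at -0.54 in DPCs. The binding protein Igfbp3 went the other way with 754 and 385, or -1.23 (-1.50 to -0.98), while Ghr, the growth hormone receptor, stood at -0.38 (-0.45 to -0.32). Hgf had 25 and 267, or 3.06 (2.35 to 4.19). Pgf (placental growth factor) had 446 and 190, or -1.48 (-1.86 to -1.14), and Vegfd 547 and 1570, or 1.25 (1.06 to 1.46).

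Interferon-stimulated genes, which cells induce against viruses, had a median above that of all genes. Of 49 measured, 13 were at least 2-fold higher and none lower, with a median of 0.66, against 23 higher and 1 lower in DPCs. Irgm1, an interferon-induced GTPase, had 3493 and 12060 counts, or 1.52 (1.45 to 1.60), and Ifit3, which binds viral RNA, 1102 and 3876, or 1.55 (1.41 to 1.69). Ifi44 had 1005 and 4431, or 1.87 (1.74 to 2.02), Trim30a 213 and 1362, or 2.40 (2.12 to 2.73), and Tgtp2 28 and 243, or 2.77 (2.04 to 3.76). Several of these genes have near-identical copies, such as Tgtp2 and Ifit3, and the share of each is uncertain. Not all members followed, with Oas1a at -0.96 (-1.91 to -0.19) and Rsad2 at -0.50 (-1.20 to 0.20). Antigen presentation genes had a median of 0.22 and none past 2-fold.

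Promoters of 2 members are shown because they hold the core of the interferon response element and belong to the largest differences of the list. The source and window are as above, and capitals mark GAAANNGAA or its reverse TTCNNTTTC, where N is any base.
Tgtp2, chr11:49064163-49064462, minus strand: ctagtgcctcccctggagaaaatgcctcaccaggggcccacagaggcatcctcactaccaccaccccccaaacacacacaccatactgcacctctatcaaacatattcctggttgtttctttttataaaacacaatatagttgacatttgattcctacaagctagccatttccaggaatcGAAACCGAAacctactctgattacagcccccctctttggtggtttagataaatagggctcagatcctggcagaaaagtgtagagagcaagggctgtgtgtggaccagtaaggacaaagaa
Trim30a, chr7:104465144-104465443, minus strand: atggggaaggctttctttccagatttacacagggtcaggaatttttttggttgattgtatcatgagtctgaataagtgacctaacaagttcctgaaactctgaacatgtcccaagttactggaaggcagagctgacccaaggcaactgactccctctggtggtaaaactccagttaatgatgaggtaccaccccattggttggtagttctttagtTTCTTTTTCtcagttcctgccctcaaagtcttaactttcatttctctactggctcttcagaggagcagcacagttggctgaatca

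Of the 49 measured genes of the list, 36 had a promoter in the table. The element was in 58.1% of their 43 promoters on either strand, against 8.56% of all promoters. The median log2 difference was 0.79 for the 24 genes with it and 0.59 for the 12 without.

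Complement genes differed in both directions, with 4 of 20 measured higher and 6 lower. C1qa, made by macrophages, was lower as given above. Clu (clusterin) had 136 and 1139 counts, or 2.78 (2.43 to 3.18), and Masp1, a protease of the lectin pathway, 5563 and 22686, or 1.76 (1.70 to 1.82). C4b had 75 and 278, or 1.60 (1.11 to 2.21), and its near-identical copy C4a 23 and 81. C1s1 and C1ra stood at 0.74 (0.66 to 0.81) and 0.62 (0.55 to 0.70). Of the chemokines, Ccl9, made by macrophages and osteoclast precursors, had 1506 and 453, or -1.99 (-2.22 to -1.79), and Ccl8 27 and 184, or 2.42 (1.71 to 3.52). Cxcl12 of stroma had 5695 and 10461, or 0.61 (0.55 to 0.68),. Cxcl13 was at 0 in both DSC libraries. The lower leukocyte markers were given above, and their part in these values was not tested.

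Chemokine receptors, which guide migrating cells along chemokine gradients and through which the study examined homing, had few counts. Of 22 listed, 9 were at 0 in both DSC libraries and 9 were measured, of which 3 were higher and 4 lower. Cxcr5, the receptor of Cxcl13, was among those at 0, which allows up to 0.158 CPM at passage 3 and 0.132 CPM at passage 9 and so sets no direction at this depth. Cxcr4, the receptor of Cxcl12, had 37 and 16 counts, or -1.35 (-2.85 to -0.16), and Cxcr6, the receptor of Cxcl16, 24 and 11, or -1.23 (-3.39 to 0.08). Cx3cr1, also carried by macrophages, had 132 and 19, or -2.92 (-4.33 to -2.13). The atypical receptors Ackr3 and Ackr4, which take up chemokines without signalling through G proteins, were higher, with 130 and 445, or 1.50 (1.10 to 1.93), and 185 and 459, or 1.04 (0.70 to 1.42). Ccr1, counted as higher, had 0 and 9, and Ccrl2, counted as lower, had 15 and 7. For Ccr1, Ccrl2 and Cxcr6 the interval included 0.

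Immediate early genes, which cells induce within minutes of a stimulus, had 7 of 23 higher, none lower and a median of 0.66. Nr4a1, an orphan nuclear receptor, had 633 and 3068 counts, or 2.01 (1.84 to 2.19), Egr2 401 and 1714, or 1.83 (1.61 to 2.06), and Fos 575 and 1964, or 1.50 (1.32 to 1.70). Jun and Junb, AP-1 partners of Fos, stood at 0.45 (0.38 to 0.53) and 0.75 (0.65 to 0.85). Secreted factors of senescence had a median of 0.52, with 6 of 35 higher and 3 lower. Those higher included Mmp3, Hgf, Spp1 and Ccl8, and those lower included Fgf2 and Igfbp3, all given above. The cytokine Il6 had 53 and 129 counts, or 0.99 (0.36 to 1.75).

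Of 35 neuropeptide and neurotrophic genes, 23 were measured, some of them through 1 library. Vip, the vasoactive intestinal peptide, had 2 and 574 counts with the interval 5.41 to 13.21, and Tac1, which encodes substance P, had 0 and 76 (at least 10.5-fold higher). Bdnf had 2430 and 6430, or 1.14 (1.04 to 1.24), whereas its receptor Ntrk2 had 36 and 6, or -2.45 (-5.26 to -1.07). Nrg1 (neuregulin 1), a factor that Schwann cells need, had 1750 and 4758, or 1.18 (1.07 to 1.29), and its receptor Erbb3 had 44 and 9, or -2.28 (-4.72 to -1.17). Gfra1, the GDNF receptor, had 972 and 2877, or 1.30 (1.15 to 1.45). Of the adhesion genes, Cdh4 had 0 and 180 (at least 25-fold higher), and L1cam and Cdh3, both examined by the study, had 124 and 25, or -2.47 (-3.66 to -1.73), and 37 and 12, or -1.71 (-3.47 to -0.46). Crmp1, a further gene of the study, stood at 2.22 (1.81 to 2.74) and Nfatc2 at -1.85 (-2.84 to -1.15).

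The largest differences of all lay partly outside these groups. By the interval bound nearer to 0, the 15 largest rises included Cfap54 (0 and 420 counts), a ciliary gene, Bnc1 (0 and 385), a zinc finger factor of epithelia and mesothelium, Spock3 (0 and 377), a matrix proteoglycan, and Klra4 (0 and 351), a receptor of natural killer cells with near-identical copies. Also among them were Stra6 (0 and 281), a receptor for retinol-binding protein, Pgr (0 and 268), the progesterone receptor, and Rgs20 (0 and 220), a regulator of G-protein signalling. Each was at 0 in low-passage DSCs, with lower bounds from 30.5-fold for Rgs20 to 58.2-fold for Cfap54. The 15 largest falls included the synaptic adhesion gene Lrrtm1, with 411 and 8 counts, or -5.59 (-7.83 to -4.57), and the phosphatase gene Ppef1, with 307 and 10, or -4.91 (-6.84 to -3.95). With them were Lrtm1, with 97 and 0, and Ngfr, Sox10, Cdh19, Col2a1, Col15a1, Fbn2 and Acan.

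Several entries of that ranking rest on reads that more than 1 gene could claim. Gm20634 had 3 and 1426 counts and Hist2h2aa1, whose exons it overlaps on the same strand, 536 and 1. Their sum was 539 and 1427, or 1.14 (0.94 to 1.35). SETD1A had 632 and 7, and summed with the overlapping Setd1a the counts were 4396 and 4827, or -0.13 (-0.21 to -0.05). The gamma protocadherins, neuronal adhesion proteins whose genes share their last exons, were ranked on both sides. Pcdhgb8 had 108 and 8008 counts and Pcdhga8 1245 and 14, with Pcdhgc4 at 3906 and 114. All 22 genes of the cluster together had 21720 and 34520, or 0.40 (0.37 to 0.44), so the values of single members are uncertain. Of the genes given above, Pdgfra, Hgf, Spp1, Fgf2, L1cam, Top2a, Rad54b, Ctnnb1, Notch2, Ncl, Foxd3, Hoxc5 and Hoxc10 also overlap exons of another gene on the same strand. Others, such as Fbn2, Col15a1, Bnc1, Rgs20 and Axin2, overlap exons on the other strand, and whether counting used strand is not given. The integrin genes Itga8, Itga4 and Itga7 also share exon bases with another gene. Of all tested genes, 37% share exon bases with another gene. Over the 10552 that do not, 914 were at least 2-fold higher and 693 lower, and 275 and 126 at least 4-fold.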

How the data were processed

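RNA of cultured whisker DSCs and DPCs at passages 3 and 9 was sequenced by the authors, 1 library per group. The study gives poly-A selection with a NEBNext Ultra kit and paired-end sequencing, and the labels name a TruSeq kit. The submitters' processing notes name Bowtie 0.12.2 and the builds mm8 and mm9. The gene counter and its use of strand are not given in the sources used here. The authors deposited raw counts per gene for the 4 libraries, and beside them FPKM, counts scaled for gene length and library size, which served only as an alternative. Gene IDs and positions in the table were those of GRCm38 for 94.1% of the IDs that a GRCm38 annotation holds, so that build is given.

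Counts were scaled by TMM over the 4 libraries (edgeR 4.0.16 in R 4.3.3), and log2 CPM was computed with a prior count of 2. Genes with a mean count of at least 10 were kept. With 1 library per group no model was fitted and no p-value computed. Intervals are 95% Clopper-Pearson intervals of a gene's share between the DSC libraries, on halved counts because both mates appear to have been counted. They compare these libraries and not the conditions, and cover counting error only. A check on simulated data drew exactly 2 counts per fragment, as the intervals assume, so it did not test that assumption. Alternatives were total counts, DESeq2 1.42.0 size factors, upper quartile scaling, TMM over the DSC libraries alone, prior counts of 0.5 and 10, other filters, the FPKM and counts as deposited.

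The gene lists, motifs and rules were chosen with earlier results of these data known. Named genes are the 15 largest differences each way by the interval bound nearer to 0, every member of lists with up to 12 measured members, the 4 largest differences each way of longer lists among members with at least 20 counts in a DSC library, the 3 with most counts, the partners of these, and the genes the study examined. Chosen after their values were seen were the other Hox genes given, Rgs5, Ccnb1, Plk1, Ogn, Aspn, Hapln1, Setd1a, the genes next to the 4-fold boundary and Cxcl16, and the markers, Cxcr5 and Cxcl13 given at 0. Members of the lists without a matching ID were Col21a1, H2-L and Ntn3. Some genes that the rule names are not reported here. Promoters are from RefSeq on GRCm38.p6.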

Additional observations from a re-analysis of the deposited data

Results flagged for a closer look

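Among the named genes with a count in all 4 libraries, 7 were at least 4-fold higher with passage in one cell type and at least 4-fold lower in the other, with counting intervals that excluded 0 in both. Each group was 1 library, so the difference between the cell types was not tested. The matrix genes among them were Col10a1, at 2.51 in DSCs and -3.33 in DPCs, and Hapln1, at 2.55 and -2.66. Vwf stood at -3.18 and 4.87, and Ntrk2 at -2.45 and 2.13, both on few counts in DSCs. The others, SETD1A (-6.35 and 6.01), Pcdhga8 (-6.52 and 3.75) and Pcdhgb8 (5.92 and -3.17), share exons with other genes on their strand.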

How the results depend on the processing

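No alternative reversed a difference of at least 2-fold among the named genes. Among the 21 lists whose medians were recomputed, none reversed a median of at least 0.5 on the log2 scale. Counts of genes depended on the filter and the unit. Without a filter beyond a count in 1 library, 2858 genes were at least 2-fold higher and 2362 lower, and 779 and 421 at least 4-fold. With a mean of at least 100 counts these were 604, 510, 148 and 59. A prior count of 10 left 235 and 104 genes past 4-fold. The deposited FPKM gave 254 and 96 past 4-fold as log2(FPKM + 0.1), and 372 and 313 past 2-fold and 53 and 19 past 4-fold as log2(FPKM + 1). The proteoglycan median became 0.37 with a prior count of 10, 0.36 with a mean of at least 100 counts and 0.31 as log2(FPKM + 1). That of secreted senescence factors became 0.36 as log2(FPKM + 1), and that of cytosolic ribosomal proteins -0.32 as log2(FPKM + 0.1). Of the 221 named genes past 2-fold, 220 stayed so with total counts, 210 with a prior count of 10, 197 as log2(FPKM + 0.1) and 131 as log2(FPKM + 1). Other scalings moved the median of all genes by 0.03 at most. Setting genes at 0 to their lower bounds moved no list median printed here. Libraries could not be left out in turn with 1 per group. No paired analysis was possible because each group held 1 library. With no replicate, counting intervals leave out the spread between cultures, and genes with few counts have wide ones.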

Other observations

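Genes of axon guidance, which also steer nerves and vessels toward the follicle, held 11 higher and 6 lower members of 56 measured in DSCs, with a median of 0.07. Sema3a, a secreted repellent, had 882 and 4670 counts, or 2.14 (1.99 to 2.29), and stood at -1.94 in DPCs. Sema5a had 375 and 2444, or 2.43 (2.22 to 2.67). The Eph receptors went in both directions. Epha1 had 183 and 2460, or 3.47 (3.18 to 3.81), Epha3 had 9247 and 3024, or -1.88 (-1.96 to -1.79), and Ephb2 had 1756 and 639, or -1.72 (-1.92 to -1.54). The netrin receptor Unc5b was lower at -1.60 (-1.77 to -1.44), and the well detected Slit3 and Plxna1 stood at -0.19 and 0.03.

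Of 23 measured potassium channel genes, 6 were higher and 7 lower, most of them with few counts. Kcna6 had 61 and 0 counts (at least 12.2-fold lower) and Kcna1 45 and 6, or -2.76 (-5.52 to -1.40), whereas the stretch-activated Kcnk2 had 144 and 415, or 1.25 (0.86 to 1.67). In the adipogenic list 2 were higher and 4 lower of 20. The adipogenic factor Cebpa stood at -1.29 (-1.60 to -1.01) and its early relative Cebpd at 1.29 (1.16 to 1.43), and Lpl (lipoprotein lipase) had 5580 and 2238, or -1.58 (-1.68 to -1.48). In the YAP and TEAD list Amot (angiomotin) was higher, with 1216 and 5004, or 1.77 (1.65 to 1.91), and Tead4 was lower at -1.05 (-1.37 to -0.73), while the YAP targets Ccn1 and Ccn2 stood at 0.36 and 0.00. None of the 11 measured hedgehog genes reached 2-fold, with Gli1 at -0.56 (-1.24 to 0.04) and Ptch1 at 0.14 (-0.05 to 0.33).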
